A study of Mus musculus with 58 samples.

Results

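Cholesterol synthesis and sterol handling were followed through 7 named genes, Hmgcs1, Idi1, Sqle, Lss, Cyp51, Stard4 and Srebf2, in the livers and liver tumors of mice. A gene was read from transcript clusters, the units of the array, that carry its symbol alone, and the brightest such cluster stood for it. By that rule 6 of the 7 were measured among 22180 genes. The single cluster of Idi1 also carries the symbol Gm13502, so no value is given for Idi1. All 58 arrays came from adult mice that had received adeno-associated virus (AAV), a vector that can insert into chromosomes, soon after birth. The design asks whether such insertions contributed to liver cancer. The 29 arrays of normal tissue are therefore normal liver of AAV-treated animals, and no untreated liver was analysed here. Strain was a mixture of 129/Sv, C57BL/6 and FVB/NJ in every animal, and the vector and its dose are not stated for most of them. Titles mark 5 normal livers and 5 tumors +/- and 4 normal livers and 5 tumors -/-, for a gene the labels do not state, and the rest carry no mark; all of them enter the comparison of tissues. Titles name 39 animals, of which 18 gave both tissues and 1 gave 2 tumors.

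Hepatocytes are among the cells that make cholesterol from acetyl-CoA. Hmgcs1 encodes the cytosolic synthase that makes HMG-CoA, an early intermediate of the route. Idi1 encodes the isomerase that supplies the activated isoprene unit. Squalene is then oxidised by the product of Sqle, closed into the first sterol, lanosterol, by that of Lss, and demethylated by that of Cyp51. Stard4 encodes a soluble carrier that moves sterol between membranes inside the cell, so the measured members hold no gene of lipoprotein uptake. Srebf2 encodes SREBP2, a membrane-bound transcription factor that is cut and sent to the nucleus when sterol is low and that activates genes of this route, its own included.

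The promoters are shown because SREBP2 reads short elements near the start sites of its targets, and because these genes moved together in the values that follow. RefSeq sequence of assembly GRCm38.p6 was matched by symbol for 4 of the 6 measured members, as the 250 bases before the start, 5′ to 3′ on the gene's strand. Promoters of Sqle and Stard4 are not shown. Capitals mark matches to a sterol regulatory element, searched as TCACNCCAC, or to the looser TCACNNCA, on either strand. The looser form was added after these promoters had been read.
Hmgcs1, chr13:119690101-119690350, plus strand: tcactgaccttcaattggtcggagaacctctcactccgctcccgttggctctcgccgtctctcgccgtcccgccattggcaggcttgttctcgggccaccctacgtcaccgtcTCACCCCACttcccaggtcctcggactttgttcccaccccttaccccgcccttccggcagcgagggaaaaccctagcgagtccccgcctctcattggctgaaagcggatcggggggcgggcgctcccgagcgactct
Cyp51, chr5:4104698-4104947, minus strand: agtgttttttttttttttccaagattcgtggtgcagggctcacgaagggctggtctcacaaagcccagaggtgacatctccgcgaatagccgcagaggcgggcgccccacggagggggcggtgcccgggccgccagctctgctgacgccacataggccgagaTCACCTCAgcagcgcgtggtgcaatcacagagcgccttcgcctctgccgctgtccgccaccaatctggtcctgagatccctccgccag
Srebf2, chr15:82147019-82147268, plus strand: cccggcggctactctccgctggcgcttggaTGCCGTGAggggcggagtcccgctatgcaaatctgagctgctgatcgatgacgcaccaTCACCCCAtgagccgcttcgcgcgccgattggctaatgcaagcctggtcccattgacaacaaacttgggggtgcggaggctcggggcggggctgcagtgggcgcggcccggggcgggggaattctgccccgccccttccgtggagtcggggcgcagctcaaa
Lss, chr10:76531355-76531604, plus strand: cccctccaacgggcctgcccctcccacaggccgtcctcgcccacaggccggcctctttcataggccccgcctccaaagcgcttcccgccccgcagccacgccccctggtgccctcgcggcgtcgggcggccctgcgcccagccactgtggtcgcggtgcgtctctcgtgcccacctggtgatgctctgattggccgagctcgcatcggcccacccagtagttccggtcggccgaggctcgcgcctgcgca

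The strict element was found in the Hmgcs1 promoter, from 137 to 129 bases before the start, and in 1.05% of 32851 promoters of this length in the table. The looser form includes that match and was also found in the promoters of Cyp51, from 88 to 81 bases before the start, and of Srebf2, from 162 to 155 on the plus strand and from 220 to 213 on the minus strand. It was found in 11.4% of all promoters. The Lss window held neither form. A CCAAT box (CCAAT, either strand), the site of NF-Y, was found in all 4 promoters and in 33.8% of all, and a GC box (GGGCGG, either strand), the site of Sp1, in all 4 and in 32.7%. These are matches of letters in a window and not measured binding.

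Tumor 9 stood apart from the other arrays. Its mean correlation with the others was 0.873, and the next lowest of any array was 0.911. The mean log2 level of 9 hepatocyte genes such as Alb and Apob was 7.66 in tumor 9, between 12.12 and 12.79 in the other 28 tumors and between 12.25 and 12.88 in normal liver, so tumor 9 lacked the profile of its labelled tissue. Its mean level of 6 T and NK cell genes was 11.2, against 6.9 to 8.63 in the other tumors. Values that turn on tumor 9 are given with and without it. In 7 arrays, 3 of normal liver and 4 of tumor, Xist and Y-linked genes went against the gender label, and these arrays too were left out in turn. Log2 values ran from 2.91 to 14.08 with array medians from 6.72 to 7.15.

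The first comparison asked whether the sterol genes differed between tumor and normal liver. Cyp51, Stard4 and Hmgcs1 were lower in tumors, by 2.08, 1.98 and 1.72 times. Sqle, Srebf2 and Lss did not pass the test. Thus 3 of 6 measured members were called lower and 0 higher, where 14.3% of all genes tested were called lower and 17.9% higher (limma, animal as a random block, Benjamini-Hochberg adjusted p under 0.05 over all genes). The members' median log2 change was -0.576, against -0.0211 over all genes. In bulk tissue, fewer cells of a type and less RNA per cell cannot be told apart.

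Hmgcs1, at the entry to the route, had log2 values of 9.782 at the lowest, 11.48 at the median and 12.59 at the highest in the 29 normal livers. In the 29 tumors these were 8.887, 10.75 and 12.55. The ranges overlap over most of their length, and 6 tumors lay below the lowest normal liver while none lay above the highest. Normal livers averaged 11.38 ± 0.89 (SD, n = 29) and tumors 10.6 ± 0.905 (SD, n = 29), a log2 change of -0.78 (SE 0.22, limma adjusted p = 0.00418).

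Sqle, which introduces the first oxygen, ran from 6.957 through a median of 10.02 to 11.81 in normal liver. In tumors it ran from 8.014 through 9.846 to 11.23, wholly inside the normal range. Normal livers 22 and 26 set the low end of that range, at 6.957 and 7.631, and the next lowest, normal liver 27, stood at 8.541. Tumors 26, 10, 3, 9 and 6 lay below normal liver 27. The spread, with normal livers 22 and 26 included, was larger in normal liver (SD 1.12) than in tumors (SD 0.84). Its log2 change of -0.37 (95% confidence interval -0.85 to 0.11, limma adjusted p = 0.246) did not pass.

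Lss, the next enzyme, had no called change. Its values were 8.695, 9.734 and 11.06 (lowest, median, highest) in normal liver and 8.13, 9.872 and 11 in tumors. The log2 change was 0.11 (95% confidence interval -0.22 to 0.43, limma adjusted p = 0.642), which leaves room for a rise or for a small fall. Only tumors 9 and 20 lay below every normal liver.

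Cyp51, which acts on the product of Lss, had the largest mean change of the members. Normal livers ran from 7.655 through 9.811 to 11.17 and tumors from 7.046 through 8.709 to 11.14, with 5 tumors below every normal liver. Mean values were 9.771 ± 1.04 (SD, n = 29) and 8.721 ± 1.06 (SD, n = 29). The log2 change was -1.06 (SE 0.26, limma adjusted p = 9.5e-04).

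Stard4, the sterol carrier, had the smallest adjusted p among the members. Its values were 7.096, 8.94 and 9.844 in normal liver and 6.942, 7.87 and 9.06 in tumors, so the tumor median lay near the low end of the normal range and 4 tumors lay below it. Mean values were 8.806 ± 0.696 (SD, n = 29) and 7.822 ± 0.569 (SD, n = 29), a log2 change of -0.99 (SE 0.16, limma adjusted p = 9.9e-07).

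Srebf2, the regulator, had an SD of 0.328 in normal liver and 0.454 in tumors. It ran from 9.423 through 10.02 to 10.57 there and from 9.007 through 9.811 to 10.98 in tumors. Tumors reached past both ends of the normal range, 6 below it and 3 above it, the highest of them tumor 9. The log2 change was -0.21 (95% confidence interval -0.40 to -0.01, limma adjusted p = 0.0962) and was not called. Without tumor 9 it was -0.25 (limma adjusted p = 0.0264) and was called. The SD was 1.38 times as large in tumors as in normal liver, while 67.4% of all genes had the larger SD in tumors and the median ratio was 1.12.

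**Figure D1:**
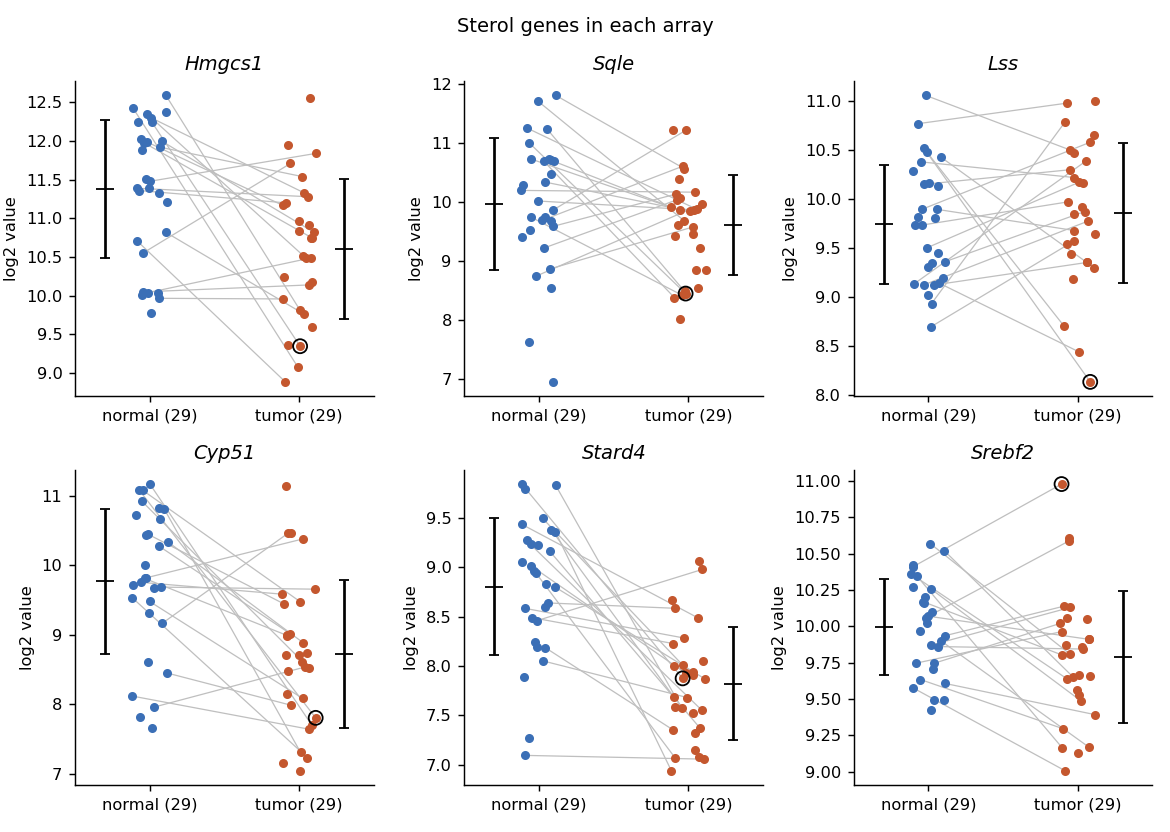
Log2 value of each measured sterol gene in every array, with normal livers in blue, tumors in orange, grey lines joining both arrays of 18 animals, and bars for the mean ± SD of 29 arrays. Most lines fall for Hmgcs1, Cyp51 and Stard4, Lss shows no common direction, and the circled tumor 9 is the highest of all arrays for Srebf2 and the lowest for Lss.

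The same tumors lay at the ends for several members. Tumors 3, 10 and 26 each had 4 members below the lowest normal liver, while 20 of 29 tumors had none. Tumor 3 was the lowest tumor for Hmgcs1, Stard4 and Srebf2, at 8.887, 6.942 and 9.007. Tumor 25 lay at the other end. It was the highest tumor for Hmgcs1 (12.55), Sqle (11.23), Cyp51 (11.14), Stard4 (9.06) and Lss (11), and for these it stayed inside the normal range. Tumors 22 and 26 bear 1 animal name, although a -/- mark stands with tumor 22 alone, and they differed: Hmgcs1 was 10.49 and 9.36, and Cyp51 8.711 and 7.151.

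Within the 18 animals that gave both tissues, Stard4 was lower in the tumor of 17, Cyp51 of 15 and Hmgcs1 of 14. The mean paired log2 difference of Stard4 was -1.081 ± 0.859 (SD, n = 18; exact two-sided sign-flip permutation p = 0.00013). For Cyp51 it was -1.177 ± 1.41 (SD, n = 18; exact sign-flip permutation p = 0.00249), and for Hmgcs1 -0.9182 ± 1.24 (SD, n = 18; exact sign-flip permutation p = 0.00538). Sqle and Srebf2 were each lower in 12 of 18 pairs, with mean differences of -0.5743 ± 1.33 and -0.2574 ± 0.525 (SD, n = 18; exact sign-flip permutation p = 0.0845 and 0.0541). Lss was higher in 11 of 18, with a mean difference of 0.022 ± 1.04 (SD, n = 18; exact sign-flip permutation p = 0.931). The 18 pairs fitted with the animal as a fixed replicate block called the same 3 members lower, with 8.13% of all genes called lower and 12.6% higher, and limma adjusted p of 3.5e-04 for Stard4, 0.00876 for Cyp51 and 0.0193 for Hmgcs1.

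Animals differed widely. In the pair of tumor 10 the log2 difference was -3.501 for Cyp51 and -3.344 for Hmgcs1, and in that of tumor 2 it was -3.474 and -2.766. In the pair of tumor 15 Cyp51 was 1.295 higher and Hmgcs1 1.168 higher in the tumor, while Stard4 differed by -0.2639. Hmgcs1, Sqle, Cyp51 and Stard4 were all lower in the tumor in 12 of 18 pairs and all higher in 1, that of tumor 1. All 6 members were lower in 6 pairs. Lss parted from Hmgcs1 and Cyp51 in 7 pairs, where it was higher while they were lower, with 0.67 against -1.054 and -1.396 in the pair of tumor 4. In those of tumors 11 and 19, Sqle was higher too (0.7103 and 0.9123), and the falls of Hmgcs1 were small (-0.00757 and -0.1138). The pair of tumor 9 was the only one in which Srebf2 was higher (0.5697) while Cyp51 was over 1 log2 unit lower (-3.28).

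**Figure D2:**
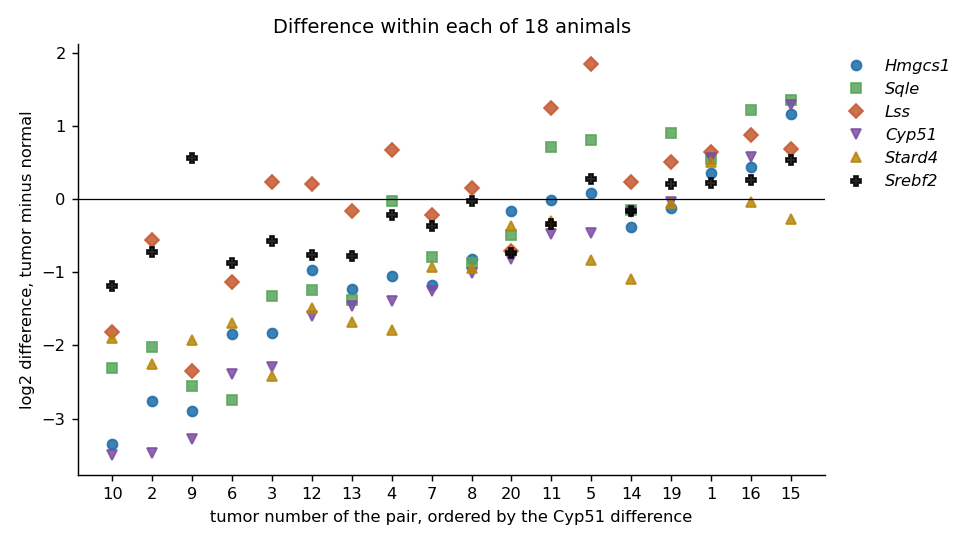
Tumor minus normal log2 difference of the 6 members in each of 18 animals, ordered from left to right by the Cyp51 difference and named by the tumor's number, with a line at 0. Hmgcs1, Sqle, Cyp51 and Stard4 lie together far below 0 on the left, Lss often lies above them, and Srebf2 spans the narrowest range, from -1.189 to 0.5697.

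The 11 normal livers and 11 tumors whose titles place them outside the pairs, the tumors from 10 named animals, were fewer and gave no call for a member in a fit without a block. Their log2 differences were -0.84 for Cyp51 (limma adjusted p = 0.281), -0.82 for Stard4 (0.0504) and -0.54 for Hmgcs1 (0.407), in the direction of the pairs. The 95% confidence intervals, -1.79 to 0.10, -1.37 to -0.28 and -1.29 to 0.21, hold the values of the pairs. In these animals 3.17% of all genes were called lower and 6.18% higher. Sqle differed by -0.00 (95% confidence interval -0.88 to 0.87) there, against -0.57 in the pairs. A looser reading of the titles joins tumor 29 to a paired animal and normal liver 28 to the animal of tumors 22 and 26. It also joins normal liver 18 to tumor 17. Under that reading the fit of all arrays called the same members lower, and the subset outside the pairs was not refitted.

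Other enzymes of the synthesis route were also lower in tumors. Of 20 listed synthesis genes 16 were measured; 9 were called lower and 0 higher, against 14.3% and 17.9% of all genes. Leaving out the members Hmgcs1, Sqle, Lss and Cyp51, 7 of 12 were called lower, with a median log2 change of -0.478. Early in the route, Mvd, which makes isopentenyl diphosphate, changed by -0.60 (SE 0.14, limma adjusted p = 4.4e-04). Fdps and Fdft1, which build farnesyl diphosphate and squalene, changed by -0.58 and -0.67 (limma adjusted p = 0.00997 and 0.00171). Mvk, mevalonate kinase, changed by -0.28 (limma adjusted p = 0.0314) and lost its call in the pairs alone (-0.35, 0.0769), with arrays centred on their median (-0.22, 0.122) and without the arrays that go against the gender label (-0.29, 0.0502). Past lanosterol, the sterol reductase gene Tm7sf2, the methyl oxidase gene Msmo1 and the dehydrogenase gene Nsdhl changed by -0.80, -0.75 and -0.87 (limma adjusted p = 1.0e-04, 0.00226 and 2.5e-04). Nsdhl, Msmo1 and Tm7sf2 were each lower in 15 of 18 pairs.

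The uncalled synthesis genes lay on both sides of 0. Besides Sqle and Lss they were Pmvk (-0.26), Hsd17b7 (-0.10), Ebp (0.07), Sc5d (-0.38) and Dhcr7 (0.10). Of these, Sc5d, a late desaturase gene, missed the threshold narrowly (limma adjusted p = 0.0607) and passed it in the pairs (-0.47, 0.0385). Ebp and Dhcr7, the late isomerase and reductase genes, were higher in 10 and 9 of 18 pairs.

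Of 10 measured genes of uptake and transport inside the cell, 2 were called lower and 1 higher, shares near those of all genes (14.3% and 17.9%). The 2 were the member Stard4 and Lrp1, a lipoprotein receptor gene (-0.38, SE 0.08, limma adjusted p = 1.6e-04). Scarb1, the receptor for high-density lipoprotein, was higher (0.82, SE 0.15, limma adjusted p = 1.2e-05). Scarb1 was higher in the tumor of 16 of 18 pairs. The list's median log2 change was -0.0648. Stard3, a late-endosome relative of Stard4, differed by 0.01 (95% confidence interval -0.09 to 0.11), and Lipa, the lysosomal lipase, by -0.23 (limma adjusted p = 0.0784).

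Of 8 measured genes of the SREBP machinery, Srebf2 included, 1 was lower and 1 higher, again near the shares of all genes (14.3% and 17.9%). Scap, whose product escorts SREBPs out of the endoplasmic reticulum, was lower by a small margin (-0.22, limma adjusted p = 0.0396) and lost its call in 6 of 13 alternative settings, among them the one without tumor 9 (-0.2, limma adjusted p = 0.0556), where Srebf2 was the 1 regulator called lower. Mbtps2, the protease that makes the second cut, was higher (0.48, limma adjusted p = 0.00199), and in the pairs alone it missed the threshold (0.44, 0.0502). Insig1, which retains Scap when sterol is high, differed by -0.30 (95% confidence interval -0.66 to 0.06, limma adjusted p = 0.199). Srebf1, which encodes the relative of SREBP2 that drives fatty acid synthesis, differed by -0.10 (limma adjusted p = 0.62). Among 6 genes of efflux and plasma esterification, Lcat was lower (-0.85, limma adjusted p = 3.4e-05), and Abcg5, Abcg1 and Abcg8, which encode sterol exporters, were higher (1.00, 0.45 and 0.52; limma adjusted p = 1.3e-04, 0.00649 and 0.0482). The Abcg8 call was lost in 5 of 13 alternative settings. Abca1, which encodes a further sterol exporter, was not called (0.01, 95% confidence interval -0.18 to 0.19, limma adjusted p = 0.962).

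**Figure D3:**
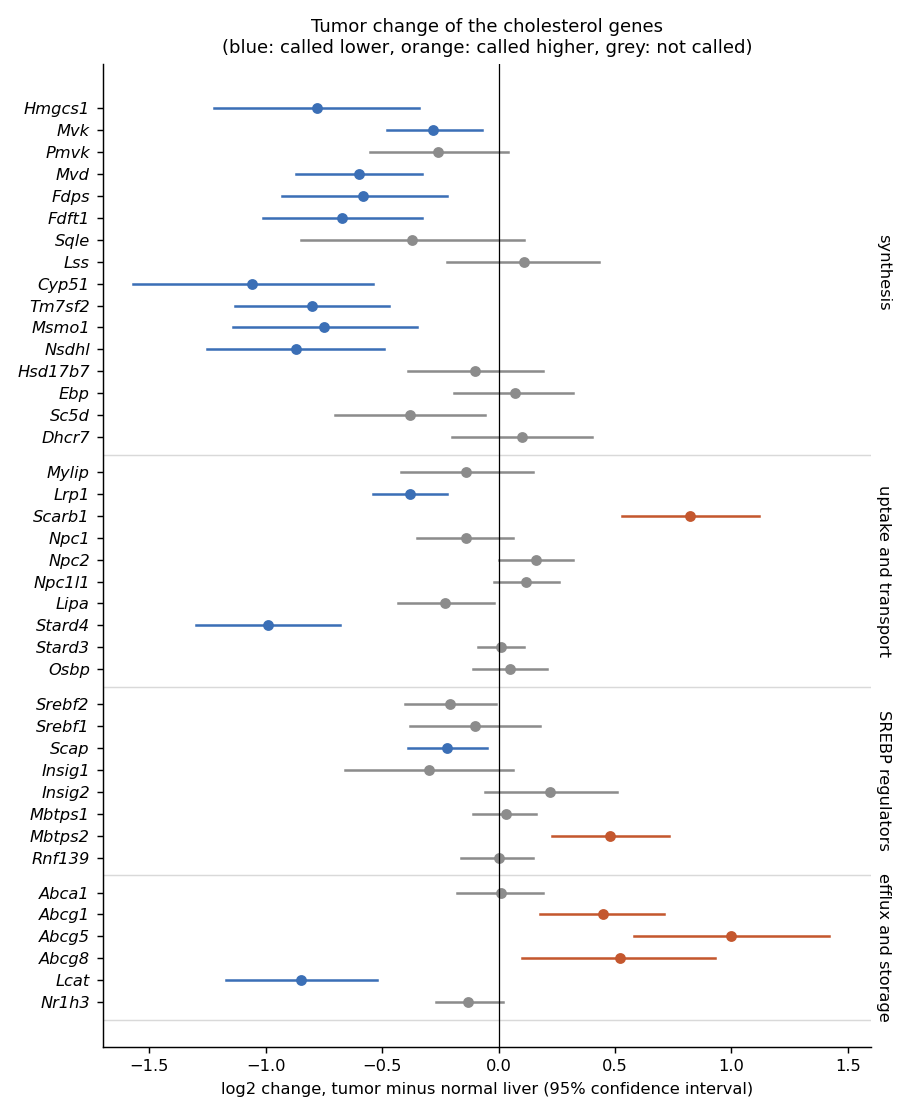
Log2 change, tumor minus normal, of every measured gene of the 4 sterol lists with its 95% confidence interval, in the order of the route for synthesis; blue is called lower, orange called higher and grey not called. From Hmgcs1 to Nsdhl the blue points run from -0.28 to -1.06, with Pmvk, Sqle and Lss grey between them, and the late enzymes Hsd17b7, Ebp, Sc5d and Dhcr7 are grey.

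Markers of the liver's cell types also differed between the tissues, to be read against the 14.3% of all genes called lower and 17.9% called higher. Of 6 Kupffer cell genes 5 were lower, with Vsig4 at -2.37 and Clec4f at -2.06 (limma adjusted p = 3.3e-07 and 2.4e-10). Their mean level ran from 8.25 to 10.84 in normal livers and from 6.77 to 10.49 in tumors. Of 6 sinusoidal endothelial genes 4 were lower (mean level 9.1 to 10.31 and 8.22 to 10.32), and of 9 hepatocyte genes 3 were lower, with Asgr1 at -1.07 (limma adjusted p = 8.2e-08). The hepatocyte genes did not share a direction: Cps1 (0.15) and Tat (0.17), both uncalled, were higher in the tumor of 16 and 15 of 18 pairs, and Asgr1 was lower in 17. Of 6 stellate cell genes 3 were lower and 1 higher (mean level 8.2 to 10.38 and 7.56 to 10.03), of 5 cholangiocyte genes 3 were lower (6.67 to 8.77 and 6.46 to 7.37), and of 6 T and NK cell genes 2 were higher, Cd4 and Ccl5 (7.07 to 8.87 and 6.9 to 11.2, or to 8.63 without tumor 9). Without tumor 9 Ccl5 was no longer called (0.38, limma adjusted p = 0.0556). The cholangiocyte genes Krt19 and Cldn7 changed by -0.19 and -0.20 and lost their calls in 3 and 5 alternative settings. Their normal liver means, 6.75 and 6.405, lay near or below the array medians of 6.72 to 7.15. Sox9, on the same list, was uncalled at 0.30. All 7 measured genes of dividing cells were higher, Rrm1 by 1.48 (limma adjusted p = 6.1e-12), with a mean level of 7.1 to 8.49 in normal livers and 7.57 to 9.67 in tumors. The part of these shifts in the fall of the sterol genes was not tested. On this log scale no marker has a level of 0.

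The second comparison asked how the members followed Srebf2 within each tissue. Over 29 normal livers all 5 did. Pearson's r with Srebf2 was 0.845 for Hmgcs1, 0.825 for Sqle, 0.817 for Cyp51 and 0.76 for Lss (permutation p = 1e-05 each, the smallest that 100000 resamples can give; 3.75e-05 after adjustment over 15 relations). Spearman's rho was 0.861, 0.8, 0.83 and 0.769, with the same permutation p. For Stard4, r was 0.511 (permutation p = 0.00474, adjusted 0.0118) and rho 0.521 (permutation p = 0.0044). Leaving out the 2 livers farthest from the median of Srebf2, normal livers 22 and 12, left r at 0.826, 0.782, 0.798, 0.726 and 0.52 in the same order. Among all 22179 other genes, Hmgcs1 ranked 1, Sqle 3, Cyp51 7, Lss 11 and Stard4 279 by r with Srebf2 in normal liver. Only 1.47% of genes had r of at least 0.5 with Srebf2, and 93.8% of the 16 synthesis genes did. The 5 genes most like Srebf2 in normal liver were Hmgcs1 (0.845), Msmo1 (0.825), Sqle (0.825), Mvk (0.822) and Mmab (0.819).

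In tumors r was lower for Hmgcs1, Sqle, Cyp51 and Lss and near its normal liver value for Stard4. Without tumor 9 it was higher for all 5. Over 28 animals, with both tumors of 1 animal averaged, r with Srebf2 was 0.479 for Hmgcs1, 0.418 for Sqle, 0.549 for Cyp51 and 0.506 for Stard4 (permutation p = 0.00982, 0.0261, 0.00237 and 0.0055; adjusted 0.0153, 0.0301, 0.00711 and 0.0118). For Lss it was 0.122 (permutation p = 0.538). Spearman's rho, which weighs 1 extreme array less, was 0.569, 0.51, 0.595, 0.521 and 0.19 for Hmgcs1, Sqle, Cyp51, Stard4 and Lss (permutation p = 0.0021, 0.00633, 0.00118, 0.00479 and 0.331). The tumors farthest from the median of Srebf2 were 9 and 25, and without both r was 0.702, 0.632, 0.702, 0.489 and 0.401 in that order. Without tumor 9 alone r was 0.757, 0.692, 0.76, 0.583 and 0.484, and all 5 passed (permutation, largest adjusted p = 0.0101). By rank 4 of them passed and Lss did not (rho 0.328, permutation, adjusted p = 0.0959). Tumor 9 had the highest Srebf2 of all arrays, 10.98, with Hmgcs1 at 9.348, Cyp51 at 7.805 and the lowest Lss, 8.13. The difference in r between the tissues was not tested.

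The likeness ranks moved the same way. By r with Srebf2 in tumors, Cyp51 ranked 934, Stard4 1416, Hmgcs1 1806, Sqle 2657 and Lss 7624 of 22179 genes. Without tumor 9 these ranks were 5, 347, 6, 44 and 1338. With tumor 9 the 5 genes most like Srebf2 were Fchsd2 (0.808), Pcnx3 (0.798), Med14 (0.776), Gopc (0.762) and Vps33b (0.761), none of them on the sterol lists. Without it they were Fdps (0.804), Fdft1 (0.787), Palld (0.78), Slc22a23 (0.769) and Cyp51 (0.76). Of the synthesis genes, 25% had r of at least 0.5 with Srebf2 in tumors, against 6.8% of all genes, and without tumor 9 these shares were 68.8% and 4.96%.

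**Figure D4:**
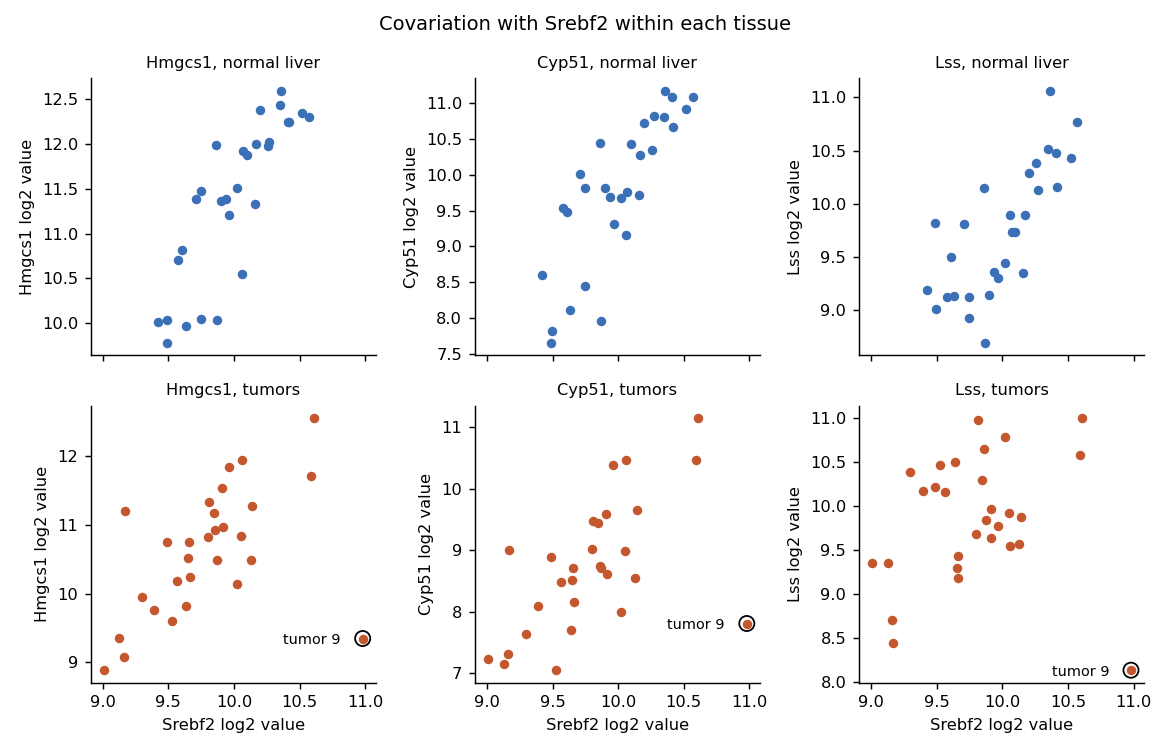
Log2 value of Hmgcs1, Cyp51 and Lss against that of Srebf2, in 29 normal livers (blue, upper row) and 29 tumors (orange, lower row), 1 point an array, with tumor 9 circled. In normal liver the points rise together in all 3 panels, and in tumors they do so for Hmgcs1 and Cyp51 apart from tumor 9, at Srebf2 10.98, while Lss scatters.

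Tumor minus normal differences of the 18 pairs gave the third view. The r with the Srebf2 difference was 0.545 for Hmgcs1, 0.611 for Sqle, 0.592 for Cyp51 and 0.529 for Stard4 (permutation p = 0.02, 0.00841, 0.0102 and 0.025; adjusted 0.0273, 0.0153, 0.0153 and 0.0301). For Lss it was 0.374 (permutation p = 0.128, adjusted 0.137). Spearman's rho was 0.587, 0.622, 0.635, 0.47 and 0.531 for Hmgcs1, Sqle, Cyp51, Stard4 and Lss (permutation p = 0.0119, 0.00729, 0.00575, 0.0514 and 0.0257). Without the pairs of tumors 10 and 9, the 2 farthest, r was 0.781, 0.869, 0.828, 0.678 and 0.722. Without tumor 9 alone it was 0.831, 0.888, 0.865, 0.701 and 0.788. The 3 lowest Srebf2 differences, those of tumors 10, 6 and 13 at -1.189, -0.8692 and -0.7715, were in animals with all 6 members, Srebf2 itself included, lower. The next lowest, that of tumor 12 at -0.7553, was in an animal with Lss higher (0.2104) and the other members lower.

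These relations were also taken in labelled females and labelled males apart. In 20 normal livers of males, r ran from 0.607 (Stard4) to 0.882 (Hmgcs1), and in 9 of females from 0.364 (Stard4) to 0.847 (Sqle). In tumors of 11 females r was 0.777 for Hmgcs1, 0.736 for Sqle, 0.802 for Cyp51, 0.666 for Stard4 and 0.686 for Lss, and all 5 passed (permutation, adjusted p from 0.0208 to 0.0308). By rank Stard4 and Lss did not pass (rho 0.545 and 0.591, permutation, adjusted p = 0.102 and 0.0759). In tumors of 16 male animals, tumor 9 among them, the values were 0.211, 0.117, 0.39, 0.328 and -0.417, and 0 of 5 passed, with or without adjustment (permutation, unadjusted p from 0.11 to 0.662). Without tumor 9 the 15 male values were 0.753, 0.643, 0.76, 0.435 and 0.165, and those of Hmgcs1, Sqle and Cyp51 passed. By rank Sqle did not (rho 0.439, permutation, adjusted p = 0.12), and its r was 0.21 without the 2 tumors farthest in Srebf2. Leaving out the arrays that go against the gender label also left 0 of 5 past the adjusted threshold by r in tumors (0.334, 0.229, 0.432, 0.42 and 0.02). For r of Cyp51 and Stard4 the unadjusted permutation p was under 0.05. By rank Hmgcs1 and Cyp51 passed (rho 0.46 and 0.495, permutation, adjusted p = 0.0466 and 0.0371). Without those arrays and tumor 9 the values were 0.691, 0.57, 0.692, 0.523 and 0.434, and all 5 passed, but Lss not by rank (rho 0.262, permutation, adjusted p = 0.225). Leaving out the 2 tumors farthest in Srebf2 as well took r to 0.481, 0.316, 0.51, 0.284 and 0.175.

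The members other than Srebf2 followed each other in both tissues. In normal liver all 10 pairings were positive and passed, from 0.669 (Sqle with Stard4) to 0.966 (Hmgcs1 with Cyp51; rho 0.954; permutation p = 1e-05, adjusted 2e-05 over 20 relations). In tumors 7 of 10 passed, and Hmgcs1 with Cyp51 stood at 0.961 (rho 0.964; permutation p = 1e-05). The 3 that did not pass all held Lss, with Hmgcs1 at 0.342, with Cyp51 at 0.284 and with Stard4 at 0.217 (rho 0.259, 0.229 and 0.213; permutation p = 0.0756, 0.145 and 0.268). Lss kept its relation with Sqle in tumors (r 0.643, rho 0.616, permutation p = 0.00015, adjusted 0.000187). Tumor 9 did not carry these values: without it Hmgcs1 with Cyp51 was 0.965, and Lss was at 0.249 with Hmgcs1 and 0.6 with Sqle. The 5 genes most like Hmgcs1 were Nsdhl (0.973), Msmo1, Cyp51, Rdh11 and Fdft1 in normal liver, and Cyp51 (0.961), Msmo1, Fdps, Nsdhl and Fdft1 in tumors. None of 12 relations of the 6 members with Srebf1 passed after adjustment (r from -0.166 for Sqle in tumors to 0.462 for Stard4 in normal liver, whose unadjusted permutation p was 0.0113 and adjusted 0.135).

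Labelled gender was then compared. No member was called between females and males in normal liver (9 and 20 arrays; 0.0361% of all genes called lower in females and 0.0135% higher) or in tumors (11 and 17 arrays; 0.018% and 0.00451%), and none had an unadjusted p under 0.05 there. The widest intervals were those of Cyp51, 0.50 (95% confidence interval -0.32 to 1.32) in normal liver and 0.55 (-0.24 to 1.35) in tumors, so differences of these sizes remain possible. Females averaged 10.07 ± 0.97 for Cyp51 in normal liver (SD, n = 9), and their tumors 9.05 ± 1.24 (SD, n = 11). Males averaged 9.63 ± 1.06 (SD, n = 20) and 8.51 ± 0.94 (SD, n = 17).

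The tumor change was called in males for Cyp51 (-1.12, limma adjusted p = 0.00589), Hmgcs1 (-0.82, 0.0195) and Stard4 (-0.97, 1.5e-04), where 14.5% of all genes were called lower. In females only Stard4 was called (-1.06, limma adjusted p = 0.0205; 0.685% of genes called lower), and without the arrays that go against the label it was -0.84 (0.271). Cyp51 and Hmgcs1, which were not called in females, had log2 differences of -1.07 (SE 0.43) and -0.83 (SE 0.37) there (limma adjusted p = 0.215 and 0.284). The difference of the female from the male change was called for 0 members and 0 of 22180 genes by limma, with 1004 genes, none of them a member, at an unadjusted p under 0.05. For Sqle that difference was -0.52 (95% confidence interval -1.55 to 0.50) and for Cyp51 0.05 (-1.04 to 1.13).

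The genotype marks were compared last. In normal males, 4 livers marked -/- and 5 marked +/- were compared. Normal livers 26 (+/-) and 27 (-/-) bear the same animal name and were counted as separate animals because their marks differ. In this comparison limma called 0 members and 0 of 22180 genes, with 1461 genes, none of them a member, at an unadjusted p under 0.05. Sqle was 6.96 at the lowest, 9.12 at the median and 10.7 at the highest in -/-, and 7.63, 10.2 and 11.26 in +/-. The groups overlap, and the log2 difference was -0.96 (95% confidence interval -2.71 to 0.78). The other members differed by -0.27 (Hmgcs1 and Stard4), -0.23 (Cyp51), -0.14 (Srebf2) and -0.11 (Lss), each with an interval on both sides of 0.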

How the data were processed

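RNA of 58 liver samples was hybridised to whole-transcript arrays. The authors deposited log2 values, 1 per transcript cluster and array, and these were used unchanged. The submitters' processing notes name Affymetrix Expression Console, with its version, summary method and build not given in the sources used here. No scanner files were read, so detection is unknown, and precision rests on the number of arrays.

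Of 41345 clusters 23521 carried 1 symbol, 1814 several and 16010 none, which left 22180 genes. Idi1 had no single-symbol cluster, so relations with Srebf2 number 15, among the other members 20 and with Srebf1 12, fewer than planned. The named genes are all members, all measured synthesis genes, and up to 4 genes of smallest adjusted p of each other sterol list. Insig1, Scap and Srebf1 were named whatever their values. Up to 2 genes of each marker list and the 5 genes most like Srebf2 and Hmgcs1 were named too. Stard3, Abca1, Cps1, Tat, Sox9, Alb and Apob were added after their values were seen. Members and lists were chosen with earlier results of these data known.

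Groups came from the tissue and gender labels. Titles that name the same animal pair 18 arrays of each tissue: once the group means were removed, the median correlation was 0.241 within animals (-0.196 to 0.539, above 0.1 in 15 of 18) and -0.016 between them. Tests used R 4.3.3 with limma 3.58.1 (and statmod 1.5.0), with the animal as a random block (duplicateCorrelation), eBayes with a trend and adjustment over 22180 genes. Sign-flip tests ran over all 262144 flips. Correlations were tested with 100000 resamples, or exactly under 10 samples. Tissue differences were simulated in 100 genes per size among 22180. The fit recovered 55% at a log2 change of 0.25, 87% at 0.5 and 100% at 1, and called 16 unchanged genes. Each simulated gene kept its normal liver SD in both tissues and was drawn independently, while 67.4% of all genes had the larger SD in tumors. Recovery in genes of wider tumor spread was not simulated. Alternatives covered the block, the reading of animal titles, pairs or other animals alone, scaling, filters, array weights, gender and single arrays. Figures were drawn with matplotlib 3.10.9.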

Additional observations from a re-analysis of the deposited data

Results flagged for a closer look

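Of 18 groups of 4 to 10 arrays tested for a member's extreme value, 1 was flagged, and chance flags about 1 in 20. Cyp51 in the normal liver of females had its lowest value, 7.96, in normal liver 16, far from the next, where the median of the 9 livers was 10.01. Stard4 and Lss were also lowest of all normal livers in that array, at 7.096 and 8.695.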

How the results depend on the processing

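Hmgcs1, Cyp51 and Stard4 kept their direction under all 13 alternatives and their call under 12 of them, with log2 changes from -0.92 to -0.54, -1.18 to -0.84 and -1.08 to -0.82. The exception was the animals without a pair, where 0 members, 0 synthesis genes, 0 uptake genes and 0 SREBP regulators were called lower, and 0 regulators and 0 efflux genes higher. Sqle ran from -0.57 to -0.0 and Lss from 0.02 to 0.27, uncalled throughout. Srebf2 was called in 3 of 13, with quantile normalization (-0.28, limma adjusted p = 0.0153), array weights (-0.26, 0.0115) and without tumor 9 (-0.25, 0.0264; paired mean -0.31, exact permutation p = 0.0234).

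A fixed replicate block over the 18 pairs called 0 regulators lower and 0 higher, and the same 3 members as the random block. Without a block 0 regulators were lower, as with median-centred arrays and without the arrays against the gender label. Quantile normalization called 4 uptake genes, 2 regulators and 2 efflux genes lower. Array weights called 2 regulators lower, 2 regulators higher and 2 uptake genes higher, and median centring 2 uptake genes higher. Over all genes 3964 were higher and 3166 lower; with median centring 4689 and 1727, with array weights 5345 and 6169, in the pairs 2802 and 1804, and in the other animals 1370 and 703. The cause of these shifts was not tested. The subsets also held fewer arrays.

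Signs that turned belong to uncalled values or to correlations. Srebf1 was 0.05 in the animals without a pair. Between females and males in tumors, Stard4 was -0.01 with median centring, and Sqle and Srebf2 were 0.32 and 0.08 without the arrays against the label, where 0 members were called in females. The female minus male change was 0.02 for Hmgcs1 without a block and 0.33 without those arrays, -0.01 for Cyp51 with median centring and -0.03 without tumor 9, and 0.16 for Stard4 without those arrays. For the marks, leaving out each liver gave ranges of -0.77 to 0.29 for Cyp51, -0.68 to 0.06 for Hmgcs1, -0.29 to 0.05 for Lss and -0.47 to 0.13 for Stard4, with the highest values of Cyp51, Hmgcs1 and Stard4 found without normal liver 27.

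In labelled males, tumor 9 among them, 0 relations with Srebf2 passed by r in tumors and 0 in pair differences, likewise without the arrays against the label. By rank, without those arrays, Hmgcs1 and Cyp51 passed in tumors. Cyp51 also passed by rank in pair differences (rho 0.589, permutation, adjusted p = 0.0466). In males r of Lss was -0.417 with Srebf2 in tumors, -0.033 in pair differences and -0.148 with Stard4. Settings added after the data were seen left out tumor 9 as well; in males r of Lss was then -0.126 with Hmgcs1, -0.075 with Cyp51, -0.195 with Stard4 and -0.432 with Srebf1, and without the arrays against the label r with Srebf1 in tumors was -0.009 for Hmgcs1 and -0.095 for Lss. Without tumor 9 alone Lss with Srebf1 was -0.04. In pair differences of males without tumor 9, r with Srebf2 was 0.834 for Hmgcs1, 0.841 for Sqle, 0.816 for Cyp51 and 0.723 for Stard4. These passed (permutation, largest adjusted p = 0.0235), but Stard4 not by rank (adjusted p = 0.0534). Lss did not pass (r 0.614, permutation, adjusted p = 0.0654). Without tumor 9 and the arrays against the label, r was 0.788, 0.867, 0.834, 0.711 and 0.823 in that order. All passed (permutation, largest adjusted p = 0.00642). In normal livers of males r with Srebf1 was -0.138 for Hmgcs1, -0.201 for Sqle, -0.065 for Cyp51 and -0.116 for Srebf2. For Srebf2 with Srebf1 in tumors it was -0.335 in males and -0.082 without the arrays against the label. Of all alternative values of single genes and relations, 898 kept their direction and side of the threshold, 68 lost and 17 gained a call, and 31 turned sign.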
